A study of Mus musculus with 12 samples.

Results

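The data described here are RNA levels of 10 calcium handling genes of the muscle fibre in tibialis anterior muscle of mdx mice (strain C57BL/10ScSn-Dmdmdx/J, 4 months of age), which lack functional dystrophin and serve as a model of Duchenne muscular dystrophy. The genes were taken by symbol from a table of 28116 genes: Cacna1s, Cacna2d1, Cacng1, Ryr1, Casq1, Casq2, Atp2a1, Atp2a2, Sln and Pvalb. All 10 were found and all 10 passed the filter on low values. Cardiotoxin (CTX), a venom component that kills fibres and so starts regeneration, was injected into every muscle, so no group holds uninjured muscle and no group holds muscle with functional dystrophin. With the toxin the muscle received either anti-miR-106b, which blocks the microRNA miR-106b, or a scrambled inhibitor as control. Each of these 2 arms had 3 animals at day 3 and 3 at day 7 after the injection, 12 libraries in all. Per the series' design text, inhibition of miR-106b during regeneration was the question.

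A skeletal muscle fibre contracts when calcium leaves the sarcoplasmic reticulum and relaxes when calcium is pumped back. The voltage sensor in the surface membrane is built around Cacna1s, with Cacna2d1 and Cacng1 as accessory subunits, and opens the release channel Ryr1 of the reticulum. Inside the reticulum calcium is held by the calsequestrins Casq1, the fast fibre form, and Casq2, the slow fibre and cardiac form. Calcium returns through the pumps Atp2a1 (SERCA1, of fast fibres) and Atp2a2 (SERCA2, of slow fibres and heart, with a variant found in most cell types). Sarcolipin (Sln) is a small membrane peptide that inhibits the pumps, and parvalbumin (Pvalb) is a soluble calcium buffer of fast fibres. Developing fibres carry slow and cardiac forms of several of these proteins before the fast forms take over, and damage by calcium is a known feature of fibres without dystrophin.

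Levels are log2 CPM, the logarithm of a gene's reads relative to the scaled size of its library, so a difference of 1 is a doubling. The libraries held 28857739 to 42825246 reads, and the 10 genes had between 436 reads (Sln) and 1029728 reads (Atp2a1) in a library. Fast fibre markers, which define the labelled tissue, summed to 79124 to 95384 CPM in scrambled day 3 and to 52907 to 58193 CPM in anti-miR-106b day 3. At day 7 the sums were 144669 to 160531 CPM with the scrambled inhibitor and 137717 to 154130 CPM with anti-miR-106b. Differences were tested with limma over 14063 genes, and a gene was called at an adjusted p below 0.05 over all of them (Benjamini-Hochberg). Errors of differences are standard errors of that fit, and errors of levels are SD over 3 animals.

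At day 3, anti-miR-106b muscle had lower RNA for 6 of the 10 genes, namely Ryr1, Cacna1s, Cacna2d1, Atp2a1, Casq1 and Pvalb, and higher RNA for Sln. These 7 calls of 10 stand beside 35.7% of all tested genes called in the same comparison. The median difference of the 10 genes was -0.52, against 0.01 for all tested genes. Pvalb fell by 1.01 ± 0.15 and Cacna2d1 fell by 0.80 ± 0.06 (log2). The slow and cardiac forms Casq2 and Atp2a2 were not called, with differences of 0.44 ± 0.17 and 0.29 ± 0.16. In 9 of the 10 genes the 3 anti-miR-106b values did not overlap the 3 scrambled values, 3 of them higher and 6 lower, and the same held for 60.5% of all tested genes. At day 7, none of the 10 genes was called, beside 0.064% of all tested genes (9 genes, with 1580 at an unadjusted p below 0.05). The groups overlapped in all 10 genes at day 7, while 10.9% of all tested genes had groups that did not.

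**Figure D1:**
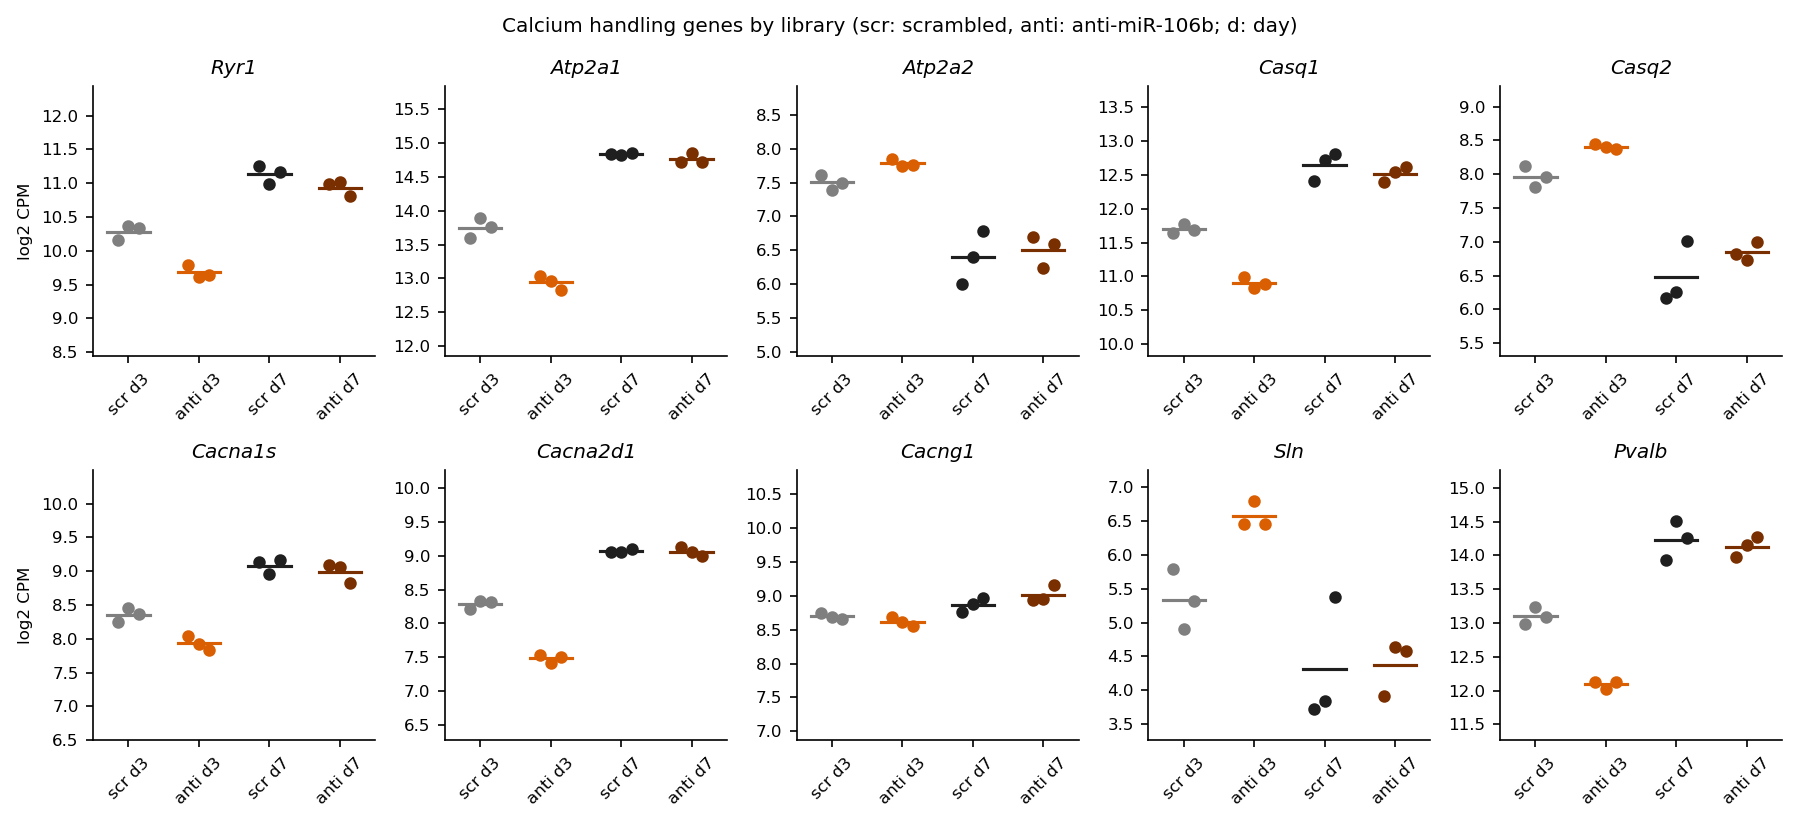
Level of each gene in log2 CPM (y axis, the same span of 4 units in every panel) for the 12 libraries in 4 groups (x axis), with 1 point per animal and a line at the group mean. In anti-miR-106b day 3 the 3 points of 6 genes lie below and those of Sln, Casq2 and Atp2a2 above the scrambled day 3 points, and at day 7 the arms overlap in every panel.

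Of the voltage sensor genes, Cacna1s forms the channel that senses the membrane potential. It lies on chromosome 1, 136052750 to 136119822 (plus strand, GRCm38). Its level at day 3 was 8.24, 8.46 and 8.37 log2 CPM with the scrambled inhibitor and 8.04, 7.93 and 7.83 with anti-miR-106b. By day 7 the 3 scrambled animals stood at 9.13, 8.96 and 9.16 and the 3 anti-miR-106b animals at 9.09, 9.06 and 8.83. All anti-miR-106b values at day 3 were below all scrambled values, and both arms were higher at day 7 than at day 3 without overlap. The day 3 difference was -0.43 ± 0.09 (adjusted p = 0.00258 in limma), and the day 7 difference was -0.09 ± 0.09 with a 95% interval of -0.28 to 0.10. With libraries scaled to their total reads the day 3 difference was -0.24 (adjusted p = 0.0495).

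Cacna2d1, the accessory subunit that helps carry the channel to the membrane, had the smallest adjusted p of the 10 genes at day 3 (chromosome 5, 15934691 to 16374511, plus strand). Scrambled animals had 8.21, 8.33 and 8.31 log2 CPM at day 3, and anti-miR-106b animals had 7.53, 7.41 and 7.51. The later samples were at 9.05, 9.05 and 9.09 with the scrambled inhibitor and at 9.12, 9.06 and 8.99 with anti-miR-106b. Replicates lay within 0.13 log2 units of each other in every group, and the arms differed by much more than that at day 3 and overlapped at day 7. The difference was -0.80 ± 0.06 at day 3 (adjusted p = 1.29e-05) and -0.01 ± 0.06 at day 7 (95% interval -0.14 to 0.13).

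The inhibited microRNA is shown with its seed, bases 2 to 8, in capitals, and with the place in the 3′ UTR of Cacna2d1 that matches it, because Cacna2d1 was the single gene of the 10 with the 7-base match. The microRNA is from RefSeq (GRCm38.p6, chr5:138165787-138165807, minus strand), and the UTR is the longest one annotated for the gene (GENCODE M21).
miR-106b-5p: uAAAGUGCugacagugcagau
Cacna2d1 UTR: ttcaacctgctGCACTTTtaccaagaaga
Capitals in the UTR mark GCACTTT, the complement of the seed. It occurred 2 times in the 3837 bases of the Cacna2d1 UTR, the first at position 365, and in 14.5% of 12923 tested genes with an annotated UTR, whose median length was 1195 bases. The 6-base core CACTTT was found in Cacna2d1 (5 times, the 7-base matches included), in Cacna1s (1 time) and in 41.7% of those genes. The other 8 genes had neither, and their UTRs were 114 to 1084 bases long. As background, a microRNA usually lowers the RNA it pairs with. Cacna2d1 fell by 0.80 log2 units with the inhibitor at day 3, when genes of fibre structure fell as well. Relative to 12 such genes its difference was -0.14 ± 0.08 and not called. Whether the matching place had a part in this was not tested. The level of miR-106b itself was not analysed here.

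Cacng1, the gamma subunit of the same channel, had the smallest day 3 difference of the 10 genes (chromosome 11, 107703218 to 107716522, minus strand). It had 8.75, 8.69 and 8.66 log2 CPM in scrambled day 3 and 8.68, 8.61 and 8.56 in anti-miR-106b day 3. At day 7 it had 8.76, 8.87 and 8.97 in the scrambled arm and 8.94, 8.95 and 9.17 in the anti-miR-106b arm. It was the single gene of the 10 whose arms overlapped at day 3, with a difference of -0.08 ± 0.08 (95% interval -0.25 to 0.08, adjusted p = 0.428). The 3 subunit genes of the voltage sensor therefore had unequal day 3 differences, from -0.80 to -0.08.

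Ryr1, the release channel, lies on chromosome 7, 29003344 to 29125179 (minus strand). Its values were 10.15, 10.37 and 10.33 log2 CPM in scrambled day 3 and 9.79, 9.62 and 9.64 in anti-miR-106b day 3. In the later groups they were 11.26, 10.99 and 11.17 with the scrambled inhibitor and 10.98, 11.01 and 10.81 with anti-miR-106b. The lowest scrambled value exceeded the highest anti-miR-106b value at day 3, and the day 7 values overlapped. Ryr1 fell by 0.61 ± 0.10 with the inhibitor at day 3 (adjusted p = 0.000413), and its day 7 difference was -0.20 ± 0.10 (95% interval -0.41 to 0.00, adjusted p = 0.45).

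Casq1, which holds calcium in the reticulum of fast fibres (chromosome 1, 172209894 to 172219868, minus strand), had 11.64, 11.78 and 11.69 log2 CPM in scrambled day 3 and 10.99, 10.82 and 10.89 in anti-miR-106b day 3. The day 7 values were 12.42, 12.72 and 12.81 in the scrambled arm and 12.39, 12.55 and 12.62 in the anti-miR-106b arm. Casq1 was lower in every anti-miR-106b animal at day 3. Its difference was -0.80 ± 0.11 there (adjusted p = 0.000232) and -0.13 ± 0.11 at day 7 with overlap (95% interval -0.37 to 0.12). The slow and cardiac form Casq2 (chromosome 3, 102086415 to 102146514, plus strand) had higher values with the inhibitor at day 3. It stood at 8.12, 7.81 and 7.96 with the scrambled inhibitor and at 8.44, 8.40 and 8.37 with anti-miR-106b. At day 7 Casq2 was at 6.17, 6.25 and 7.01 in scrambled and at 6.82, 6.73 and 7.00 in anti-miR-106b animals, so that scrambled replicate 3 lay apart from replicates 1 and 2. All anti-miR-106b values of Casq2 were higher than all scrambled values at day 3, yet the difference of 0.44 ± 0.17 missed the threshold (adjusted p = 0.053). That call was made under 8 of the 20 alternative settings, with adjusted p from 0.000105 to 0.044, among them the fit to the day 3 groups alone (0.000138). The day 7 difference of Casq2 was 0.38 ± 0.17 (95% interval 0.02 to 0.73, adjusted p = 0.418), and without scrambled day 7 replicate 3 it was 0.64 and called (adjusted p = 0.0297).

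The start sites of the calsequestrin genes and of the fast pump are shown because Casq1 and Atp2a1 fell at day 3 with the inhibitor and were higher at day 7 than at day 3, while Casq2 did not fall at day 3 and was lower at day 7. The sequences are from RefSeq (GRCm38.p6), 250 bases before to 50 bases after the start, 5′ to 3′ on the strand of the gene. The table gave such a sequence for 7 of the 10 genes. Capitals mark the E-box CANNTG, the word bound by myogenic factors of the MyoD family, and the binding word of the MEF2 factors, searched on both strands.
Casq1: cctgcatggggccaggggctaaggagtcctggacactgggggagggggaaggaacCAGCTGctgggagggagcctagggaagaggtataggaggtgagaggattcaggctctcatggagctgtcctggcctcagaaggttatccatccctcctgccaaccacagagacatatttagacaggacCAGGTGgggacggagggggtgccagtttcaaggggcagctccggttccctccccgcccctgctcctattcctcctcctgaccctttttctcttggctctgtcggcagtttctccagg
Casq2: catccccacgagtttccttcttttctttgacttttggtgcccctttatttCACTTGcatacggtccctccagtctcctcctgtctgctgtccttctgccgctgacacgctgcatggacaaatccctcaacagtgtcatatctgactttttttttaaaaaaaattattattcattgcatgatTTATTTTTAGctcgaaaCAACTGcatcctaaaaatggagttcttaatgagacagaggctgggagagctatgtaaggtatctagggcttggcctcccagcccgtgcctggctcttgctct
Atp2a1: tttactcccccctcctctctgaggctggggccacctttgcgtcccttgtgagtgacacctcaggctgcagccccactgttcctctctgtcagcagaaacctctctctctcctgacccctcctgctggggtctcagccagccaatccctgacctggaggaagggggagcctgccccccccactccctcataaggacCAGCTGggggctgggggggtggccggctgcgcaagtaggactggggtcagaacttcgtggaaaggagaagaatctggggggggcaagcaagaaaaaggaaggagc
These windows are chr1:172219846-172220145 (minus strand) for Casq1, chr3:102086165-102086464 (plus strand) for Casq2 and chr7:126463024-126463323 (minus strand) for Atp2a1. Any E-box was present in 72.3% of 32851 such windows of the genome, the E-box CAGCTG in 16.3% and the MEF2 word in 3.19%. The CAGCTG word was found at position -195 of Casq1 and position -55 of Atp2a1 (the first base of the word, with the start site as 0). It was not in the Casq2 window, which held the MEF2 word. Of the genes not shown, Cacna1s held CAGCTG at position -123. The Ryr1 and Cacna2d1 windows held no E-box and no MEF2 word, though both genes also fell at day 3 and were higher at day 7. Pvalb, which moved likewise, had no CAGCTG in either of its windows and the MEF2 word in 1 of them. A match is a description of the letters, and the data hold no binding measurement.

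The fast pump Atp2a1 drew the most reads of the 10 genes (chromosome 7, 126445858 to 126463108, minus strand). Its values were 13.60, 13.90 and 13.76 log2 CPM in scrambled day 3 and 13.04, 12.96 and 12.83 in anti-miR-106b day 3. At day 7 they were 14.84, 14.82 and 14.85 in the scrambled arm and 14.72, 14.86 and 14.72 in the anti-miR-106b arm. The arms were apart at day 3 and overlapped at day 7. The differences were -0.81 ± 0.13 (adjusted p = 0.00047) at day 3 and -0.07 ± 0.13 (95% interval -0.35 to 0.21) at day 7. Quantile normalization gives all libraries the same set of values, so a gene's value there depends on its rank alone. Under it the day 3 difference of Atp2a1 was -0.12 and not called (adjusted p = 0.386). A gene as abundant as Atp2a1 has few ranks to move through, so this setting says little about its difference. Atp2a1 shares part of its span with Rabep2 on the opposite strand, which reached 85.2 CPM, and counting by strand was not given in the sources used here.

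The slow pump gene Atp2a2 lies on another chromosome (chromosome 5, 122453513 to 122502225, minus strand). It stood at 7.62, 7.39 and 7.50 log2 CPM in scrambled day 3 and at 7.85, 7.74 and 7.77 in anti-miR-106b day 3. The day 7 values were 6.01, 6.40 and 6.79 in scrambled and 6.70, 6.23 and 6.60 in anti-miR-106b animals. The day 3 groups did not overlap, and the spread at day 7 (SD 0.39 and 0.25) was wider than at day 3 (SD 0.12 and 0.06). The day 3 difference of 0.29 ± 0.16 was not called over all 12 libraries (adjusted p = 0.174), and was called when the day 3 groups were fitted alone (adjusted p = 0.00157), under library weights (0.00175) and under total-count scaling (0.0393).

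Sln, whose peptide inhibits both pumps, was the most variable of the 10 genes (chromosome 9, 53850164 to 53854560, plus strand). In scrambled day 3 it had 5.79, 4.90 and 5.32 log2 CPM, and in anti-miR-106b day 3 it had 6.45, 6.80 and 6.46. Later it had 3.72, 3.83 and 5.38 in the scrambled arm and 3.92, 4.64 and 4.58 in the anti-miR-106b arm. Every anti-miR-106b animal was above every scrambled animal at day 3. The difference was 1.23 ± 0.36 (adjusted p = 0.0161). It was 1.01 without scrambled day 3 replicate 2 (adjusted p = 0.077) and 1.12 without anti-miR-106b day 3 replicate 2 (adjusted p = 0.0631), and was not called in either case. At day 7 the difference was 0.07 ± 0.36, with a 95% interval of -0.70 to 0.83 that does not limit it closely.

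Pvalb, the soluble buffer of fast fibres, had the lowest day 3 difference of the 10 genes in the deposited scaling (chromosome 15, 78191114 to 78206400, minus strand). Scrambled day 3 animals had 12.98, 13.24 and 13.09 log2 CPM, and anti-miR-106b day 3 animals had 12.13, 12.02 and 12.12. The day 7 levels were 13.93, 14.51 and 14.25 against 13.98, 14.15 and 14.27. The day 3 gap was several times the spread between animals, and the day 7 groups overlapped. Pvalb fell by 1.01 ± 0.15 with the inhibitor at day 3 (adjusted p = 0.000299), and its day 7 difference was -0.10 ± 0.15 (95% interval -0.42 to 0.22). Under quantile normalization the day 3 difference was -0.40 and still called (adjusted p = 0.00679), smaller in size than that of Cacna2d1 there.

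**Figure D2:**
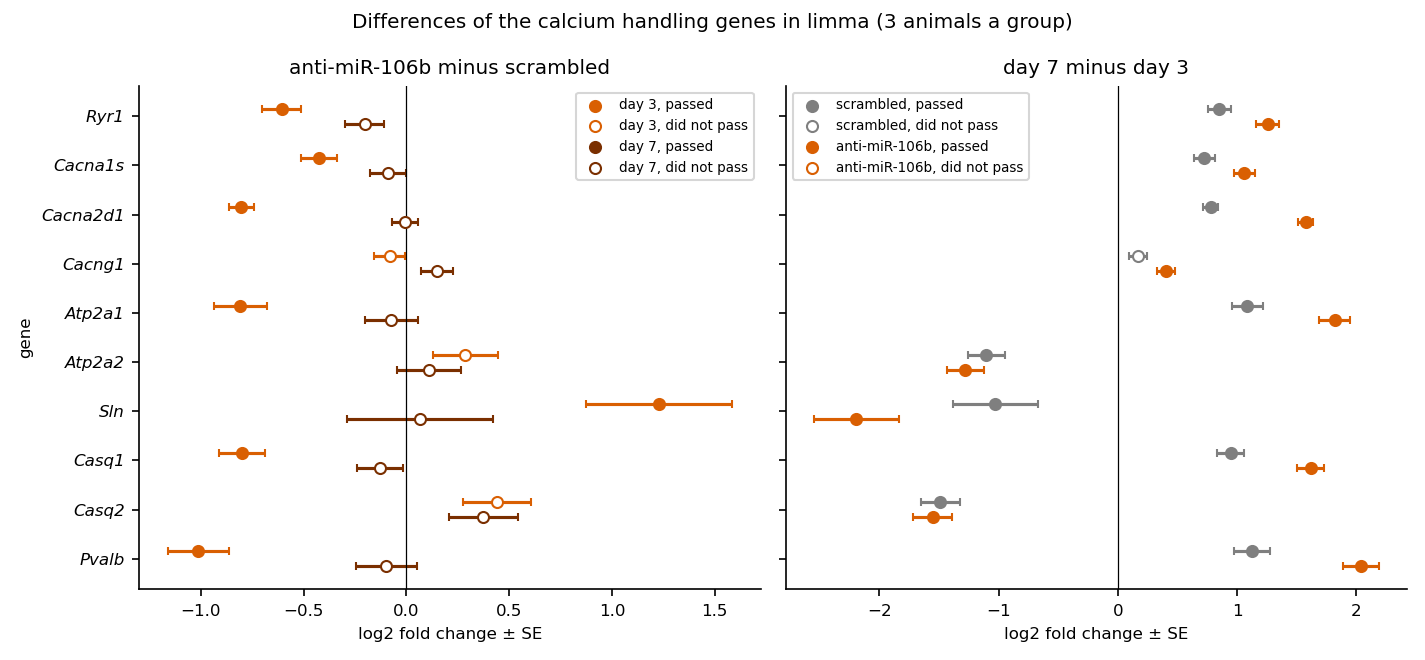
Differences in log2 CPM with their standard errors (x axis) for each gene (y axis): anti-miR-106b minus scrambled at both days on the left and day 7 minus day 3 in both arms on the right, 3 animals a group, with filled points called in limma. On the left the filled points are day 3 points, 6 below and 1 above 0, and on the right Atp2a2, Sln and Casq2 are below 0 in both arms.

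Whether the inhibitor's effect differed between the days was tested as an interaction, the day 7 difference minus the day 3 difference. It was called for 5 of the 10 genes, all positive, beside 22.3% of all tested genes. The change was 0.80 ± 0.09 for Cacna2d1 (adjusted p = 0.00041), 0.91 ± 0.21 for Pvalb (0.00915), 0.67 ± 0.16 for Casq1 (0.0103), 0.74 ± 0.18 for Atp2a1 (0.0127) and 0.40 ± 0.13 for Ryr1 (0.0461). For these genes the lower level with the inhibitor at day 3 was smaller in size at day 7. Sln had a change of -1.16 ± 0.50 (adjusted p = 0.113) and Cacna1s one of 0.34 ± 0.13 (0.0714). The Ryr1 call was lost in 12 of 19 alternatives (adjusted p 0.0542 to 0.288, among them the replicate block at 0.069). Under quantile normalization 2 of the 10 genes were called, beside 27.1% of all tested genes. Pvalb (0.31) and Atp2a1 (-0.01) were not called there.

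Between the days, most of the 10 genes differed in both arms. In the scrambled arm 9 of 10 were called, 6 higher and 3 lower at day 7, beside 68.2% of all tested genes. In the anti-miR-106b arm all 10 were called, 7 higher and 3 lower, beside 78.7%. These comparisons share libraries with those of the inhibitor, so each arm's values are given side by side. Pvalb was higher at day 7 by 1.13 ± 0.15 in the scrambled arm and by 2.04 ± 0.15 in the anti-miR-106b arm. For Atp2a1 the difference was 1.09 ± 0.13 and 1.82 ± 0.13, for Casq1 0.95 ± 0.11 and 1.62 ± 0.11, and for Ryr1 0.85 ± 0.10 and 1.26 ± 0.10. Of the voltage sensor subunits, Cacna2d1 (0.78 ± 0.06 and 1.58 ± 0.06) and Cacna1s (0.73 ± 0.09 and 1.06 ± 0.09) were also higher at day 7. These 6 genes were called in both arms, with adjusted p of at most 1.69e-05. Their sizes depended on the scaling: from 0.73 to 1.13 in the scrambled arm and 1.06 to 2.04 in the anti-miR-106b arm, they became 0.32 to 0.72 and 0.44 to 1.41 with libraries scaled to their total reads, and 0.12 to 0.49 and 0.12 to 1.22 under quantile normalization, where Pvalb was at 0.26 and 0.58.

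The 3 genes that were lower at day 7 were the slow and cardiac forms and the pump inhibitor. Casq2 fell by 1.49 ± 0.17 in the scrambled arm and by 1.55 ± 0.17 in the anti-miR-106b arm (adjusted p = 3.53e-06 and 9.69e-07). Atp2a2 fell by 1.10 ± 0.16 and 1.28 ± 0.16 (3.26e-05 and 4.19e-06). Sln fell by 1.03 ± 0.36 and 2.19 ± 0.36 (0.02 and 6.04e-05). Groups of the 2 days did not overlap for 9 genes in the scrambled arm, with Sln as the exception, and for all 10 in the anti-miR-106b arm, beside 72.4% and 81.1% of all tested genes. Scrambled day 7 replicate 3 had the highest Sln, Casq2 and Atp2a2 of its group, and also the highest sum of developing fibre markers (2052 CPM against 693 and 1538), and the part of that in the result was not tested. For Sln in the scrambled arm no call remained once scrambled day 3 replicate 1 (-0.80, adjusted p = 0.0902), scrambled day 7 replicate 1 (-0.73, 0.0873) or scrambled day 7 replicate 2 (-0.79, 0.0926) was left out, and in the fit to the 2 groups alone (0.0514), while without scrambled day 7 replicate 3 it was -1.56 (adjusted p = 5.87e-05). Cacng1 was higher at day 7 by 0.17 ± 0.08 in the scrambled arm (adjusted p = 0.0637, not called) and by 0.40 ± 0.08 in the anti-miR-106b arm (adjusted p = 0.000263), and with libraries scaled to their total reads its differences were -0.24 and -0.22, both called. Under quantile normalization the higher calls of Atp2a1 in both arms, of Casq1 in the scrambled arm and of Cacng1 in the anti-miR-106b arm were lost (adjusted p 0.276 to 0.456).

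Within each pair of isoforms, the share of the slow and cardiac form was computed per length, from CPM per kb of all annotated exons of the gene. These shares do not depend on the scaling of libraries, and they are given without a test. The Atp2a2 level includes its variant of most cell types, and the part of cells other than fibres in the share was not tested. The Atp2a2 share of the pump pair was 0.895%, 0.623% and 0.743% in scrambled day 3 and 1.54%, 1.52% and 1.68% in anti-miR-106b day 3. At day 7 it was 0.125%, 0.167% and 0.213% in the scrambled and 0.220%, 0.144% and 0.205% in the anti-miR-106b arm. The means were 0.754 ± 0.136%, 1.58 ± 0.09%, 0.168 ± 0.044% and 0.190 ± 0.040% in the same order (SD, n = 3). Pump RNA was thus mainly Atp2a1 in all 12 libraries, and the Atp2a2 share was higher in every anti-miR-106b animal at day 3 than in any scrambled one and overlapped at day 7.

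The Casq2 share of the calsequestrin pair was larger than that of the slow pump. Scrambled day 3 libraries had 5.86%, 4.36% and 5.08%, and anti-miR-106b day 3 libraries had 10.9%, 11.7% and 11.0%. In the later libraries it was 0.929%, 0.799% and 1.26% with the scrambled inhibitor and 1.48%, 1.25% and 1.43% with anti-miR-106b. The means of 5.10 ± 0.75% and 11.2 ± 0.5% at day 3 compare with 0.996 ± 0.238% and 1.38 ± 0.12% at day 7 (SD, n = 3). The day 3 groups did not overlap, while at day 7 the lowest anti-miR-106b share lay just below the highest scrambled share.

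**Figure D3:**
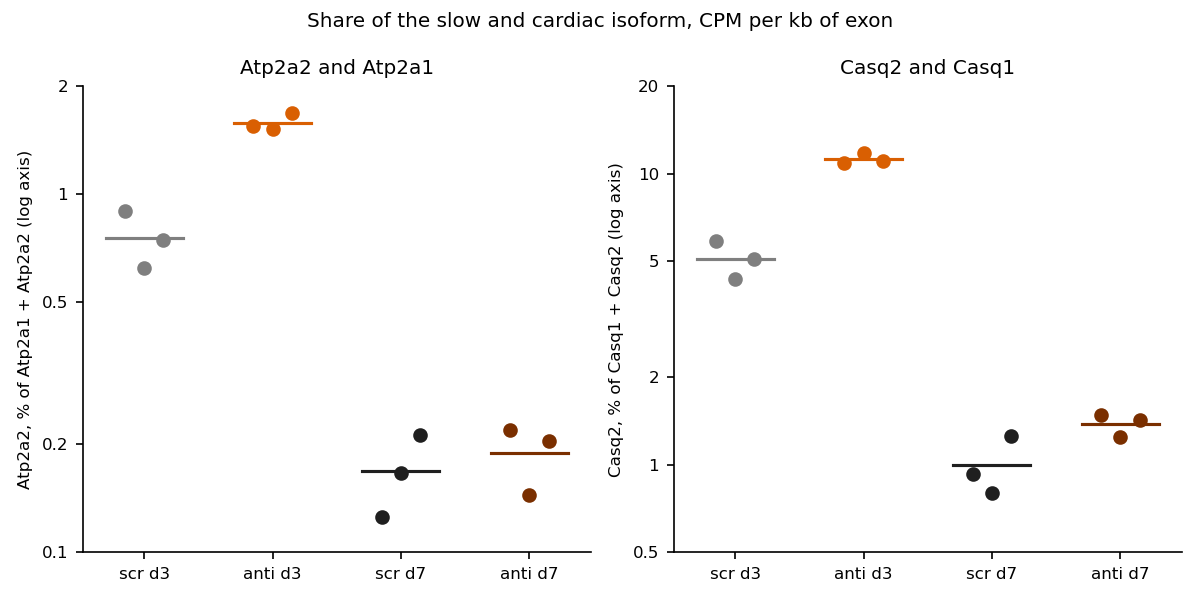
Share of Atp2a2 in the pump pair (left) and of Casq2 in the calsequestrin pair (right), in percent on a log axis (y axis), for the 12 libraries in 4 groups (x axis), with 1 point per animal and a line at the group mean. Both shares are highest in anti-miR-106b day 3 (means 1.58% and 11.2%) and lowest at day 7.

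Compared per kb of exon, the order of the levels began with Pvalb, Atp2a1, Casq1 and Cacng1 in all 4 groups, and no 2 neighbours among them overlapped. In scrambled day 3 these stood at 13.05, 11.95, 10.74 and 8.38 log2 CPM per kb. They were followed there by Casq2 (6.51), Ryr1 (5.84), Cacna1s (5.65), Sln (4.94), Atp2a2 (4.90) and Cacna2d1 (4.65), where Ryr1 overlapped Cacna1s and Sln overlapped Atp2a2. In anti-miR-106b day 3 Sln (6.17) was above Ryr1 (5.23), Cacna1s (5.22) and Atp2a2 (5.18), which overlapped each other in that order. At day 7 Ryr1 was the fifth in both arms (6.69 and 6.49) and Atp2a2 the lowest (3.79 and 3.91), with Sln next to it and overlapping. The first 4 places were the same with the longest coding transcript as length, while Cacna2d1 then stood above Atp2a2 and Sln in scrambled day 3. With that length Atp2a2 (5.62) was above Cacna1s (5.29) in anti-miR-106b day 3. Sln was then the lowest at day 7, at 3.91 below Atp2a2 at 4.23 in the scrambled arm. In the anti-miR-106b arm these stood at 3.98 and 4.34.

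Genes of fibre structure were lower with the inhibitor at day 3 as well. All 8 fast fibre markers were called lower, with a median of -0.70, and their summed medians were 86739 CPM in scrambled and 57081 CPM in anti-miR-106b animals. In bulk muscle fewer fibres and less RNA per fibre cannot be told apart. Several marker lists of other fibre states and cells had higher sums with the inhibitor at day 3. Summed slow fibre markers were 491 to 713 CPM in scrambled and 1036 to 1209 CPM in anti-miR-106b animals (3 of 6 called higher), and developing fibre markers 2690 to 3461 and 4265 to 4674 CPM (2 of 6). Macrophage markers were 2888 to 2955 and 4010 to 4417 CPM (4 of 8), and satellite cell and myoblast markers 461 to 599 and 801 to 912 CPM (4 of 6). Cardiac markers were 232 to 338 and 508 to 539 CPM (1 of the 3 tested), with Nppa and Mybpc3 under 1 CPM in both groups. Smooth muscle and pericyte markers were 493 to 565 and 666 to 768 CPM (3 of 6) and endothelial markers 147 to 157 and 158 to 171 CPM (2 of 6). Fibro-adipogenic markers were 7089 to 7744 and 8251 to 9403 CPM (2 of 6). The median difference of the 6 fibro-adipogenic markers was -0.000106, so the higher sum was not shared by the list as a whole. Schwann and nerve markers overlapped, at 80.5 to 91.9 and 77.1 to 82.7 CPM (1 of the 5 tested called lower). The part of these cell types in the differences of the calcium genes was not tested. At day 7 no marker of these lists was called between the arms. Endothelial sums were yet apart there, at 230 to 251 CPM in scrambled and 179 to 202 CPM in anti-miR-106b animals. So were those of smooth muscle and pericyte (463 to 486 and 399 to 457 CPM) and of Schwann and nerve markers (62.1 to 67.0 and 46.3 to 56.6 CPM). The day 7 sums of the other lists overlapped.

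The calcium genes were therefore also compared with the mean log2 level of 12 fibre structure genes (Acta1, Ckm, Mylpf, Tnnt3, Tnni2, Tnnc2, Actn3, Neb, Ttn, Mybpc2, Ldb3 and Tcap), subtracted in each library. On this relative scale the median of all tested genes at day 3 was 0.67, and 83.9% of genes were called, so a call says only that a gene did not move with the reference. Ryr1 (0.06 ± 0.09), Atp2a1 (-0.15 ± 0.09), Casq1 (-0.14 ± 0.10) and Cacna2d1 (-0.14 ± 0.08) were not called, with 95% intervals between -0.35 and 0.26. Pvalb was lower than the reference, at -0.35 ± 0.12 (adjusted p = 0.012). The genes above the reference were Sln (1.89 ± 0.35, adjusted p = 0.000122), Casq2 (1.10 ± 0.18, 3.17e-05), Atp2a2 (0.95 ± 0.17, 8.62e-05), Cacng1 (0.58 ± 0.09, 1.75e-05) and Cacna1s (0.24 ± 0.09, 0.0248). Cacna1s was not called with the median of the fast fibre markers as reference (0.19, adjusted p = 0.233). Apart from Myh4 these markers are also among the 12 reference genes, so the references are not independent. Nor was Cacna1s called after removal of scrambled day 3 replicate 2 (0.06) or replicate 3 (0.0524) or of anti-miR-106b day 3 replicate 1 (0.0768).

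**Figure D4:**
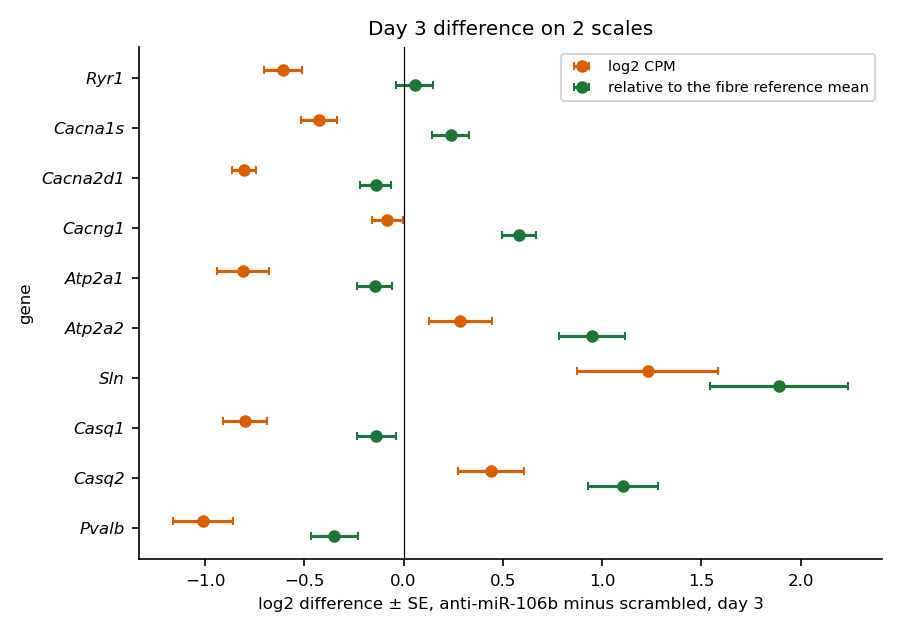
Day 3 difference between anti-miR-106b and scrambled animals with its standard error (x axis, log2) for each gene (y axis), in log2 CPM and relative to the mean of 12 fibre structure genes. Ryr1, Atp2a1, Casq1 and Cacna2d1 lie between -0.15 and 0.06 on the relative scale, and Sln, Casq2, Atp2a2 and Cacng1 lie at 0.58 or more.

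On the relative scale at day 7 none of the 10 genes was called between the arms, beside 0.0427% of all tested genes (6 genes, with 1117 at an unadjusted p below 0.05). The count over all genes ranged from 0 to 195 when single libraries were left out, with 195 without scrambled day 7 replicate 1 and 44 without anti-miR-106b day 7 replicate 2, and none of the 10 genes was called in these fits. The change of the effect between the days was called for 5 of the 10 genes, beside 73.5%: Sln (-1.82 ± 0.49), Atp2a2 (-0.83 ± 0.24), Casq2 (-0.72 ± 0.25), Cacng1 (-0.42 ± 0.12) and Cacna1s (-0.32 ± 0.13). Of the 10 genes, 3 were called without scrambled day 3 replicate 2, beside 65.4% of all tested genes. With the median of the fast fibre markers as reference 3 were called, beside 51.8%. Removal of scrambled day 7 replicate 2 gave 7 (1 positive), beside 72.6%. Without scrambled day 7 replicate 3 the Casq2 value was -0.44, still called. Between the days, 6 of the 10 genes were called in the scrambled arm, beside 85.2%, and 8 in the anti-miR-106b arm, beside 92.9%. Casq2 stood -2.33 ± 0.18 and -3.05 ± 0.18 against the reference in the scrambled and anti-miR-106b arm, Atp2a2 -1.94 ± 0.17 and -2.77 ± 0.17, Sln -1.87 ± 0.35 and -3.69 ± 0.35, and Cacng1 -0.67 ± 0.09 and -1.09 ± 0.09. Atp2a1 (0.25 ± 0.09 and 0.33 ± 0.09) and Pvalb (0.29 ± 0.12 and 0.54 ± 0.12) stood above the reference. Casq1 (0.11 ± 0.10 and 0.12 ± 0.10) and Cacna2d1 (-0.06 ± 0.08 and 0.08 ± 0.08) were not called in either arm. In the scrambled arm Pvalb was not called after removal of any single day 3 animal or of scrambled day 7 replicate 2 or 3 (adjusted p 0.0619 to 0.201), nor with the other reference (0.0595), and Atp2a1 neither after removal of scrambled day 3 replicate 1 (0.0541) nor with the other reference (0.145). In the anti-miR-106b arm Ryr1 was at -0.24 ± 0.09 and Cacna1s at -0.43 ± 0.09, and Ryr1 was not called after removal of anti-miR-106b day 3 replicate 1 or 3 or anti-miR-106b day 7 replicate 3 (adjusted p 0.0638 to 0.133) or with the other reference (0.212).

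The wider calcium machinery was taken from 6 lists by role, with 72 of 87 listed symbols tested. At day 3, 36 of the 72 genes were called lower and 4 higher with the inhibitor, with a median of -0.22. Among all tested genes 19.4% were called lower and 16.3% higher, 35.7% together. None was called at day 7, beside the same 0.064% of all tested genes. The interaction was called for 30 of the 72, with 27 positive, beside 22.3% of all tested genes. Between the days 42 were called higher and 16 lower in the scrambled arm (80.6% called, beside 68.2% of all tested genes), and 44 higher and 19 lower in the anti-miR-106b arm (87.5%, beside 78.7%), shares near those of all genes.

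Among 11 tested genes of the voltage sensor and its coupling, 6 were lower and none higher at day 3 (54.5% called, beside 35.7% of all tested genes; median -0.30). Junctophilins, which hold the surface membrane and the reticulum together, were lower, at -0.81 ± 0.08 for Jph1 (adjusted p = 3.44e-05) and -0.56 ± 0.09 for Jph2 (0.000395). Stac3, an adaptor of the voltage sensor, was at -0.34 ± 0.08 (0.00417) and the subunit gene Cacng6 at -0.36 ± 0.08 (0.00312). Cacna1h, a low-voltage calcium channel, was not called at day 3 (0.33 ± 0.13, adjusted p = 0.0685) and was lower at day 7 than at day 3, with differences of -1.29 in the scrambled and -2.12 in the anti-miR-106b arm.

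Of 15 tested release channels and luminal partners, 7 were lower and 2 higher (60.0% called, beside 35.7% of all tested genes; median -0.17). Partners of Ryr1 and the calsequestrins were among the lower ones: the anchor triadin Trdn at -0.66 ± 0.10 (adjusted p = 0.000332), the luminal calcium binder Hrc at -0.69 ± 0.09 (0.000135) and Asph, whose locus also encodes junctin, at -0.37 ± 0.05 (0.000306). The scaffold Homer1 was at -0.70 ± 0.08 (4.83e-05) and the potassium channel Tmem38a of the reticulum at -0.53 ± 0.08 (0.000314). The 2 higher genes, named after their values were seen, were Fkbp1b (0.69 ± 0.22, 0.0283), which binds release channels, and Selenon (0.48 ± 0.13, 0.0101), a selenoprotein of the reticulum.

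In the list of pumps, exchangers and micropeptides, 4 of 9 tested genes were lower and none higher (median -0.20), and these 44.4% are near the 35.7% of all tested genes. The 4 were Atp2b3, a calcium pump of the surface membrane (-0.83 ± 0.11, adjusted p = 0.000148), the sodium-calcium exchanger Slc8a3 (-0.51 ± 0.08, 0.000582), the pump-inhibiting micropeptide gene Mrln (-0.38 ± 0.13, 0.0343) and the noncoding 2310065F04Rik (-0.95 ± 0.19, 0.00192). The last of these is annotated as a long noncoding RNA gene between Myh3 and Myh4 on chromosome 11. It was counted by its place in the list, and its annotation names no calcium function. Mrln fell at day 3 with the inhibitor while Sln, of related function, was higher. Of 8 store-operated entry genes 4 were lower and none higher (4 called, beside 35.7% of all tested genes, with a median of -0.23), among them the reticulum sensor Stim1 (-0.52 ± 0.07, 0.000226), its channel Orai1 (-0.25 ± 0.08, 0.031) and the brake Saraf (-0.26 ± 0.07, 0.00964).

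Mitochondrial uptake had 4 of 10 genes lower and none higher (median -0.09), and these 40.0% are near the 35.7% of all tested genes. The 4 were the outer membrane channel Vdac1 at -0.65 ± 0.08 (adjusted p = 7.56e-05), the uniporter regulators Micu3 at -0.63 ± 0.09 (0.000184) and Mcur1 at -0.37 ± 0.08 (0.00317), and Letm1 at -0.25 ± 0.07 (0.0185). Mcub, a subunit that dampens the uniporter, was not called at day 3 (0.32 ± 0.20, adjusted p = 0.232) and was lower at day 7 than at day 3, with differences of -1.92 in the scrambled and -2.26 in the anti-miR-106b arm. The largest group, cytosolic buffers and sensors, had 11 of 19 lower and 2 higher (68.4% called, beside 35.7% of all tested genes; median -0.29). The calcium-dependent kinase genes Camk2a (-0.71 ± 0.07, 3.44e-05), Camk2b (-0.59 ± 0.08, 0.000208) and Camk2g (-0.47 ± 0.07, 0.000446) and the calcineurin subunit genes Ppp3ca (-0.44 ± 0.06, 0.000192) and Ppp3r1 (-0.41 ± 0.06, 0.000208) were lower. The 2 higher genes were Calr (0.46 ± 0.07, 0.000273) and Canx, named after their values were seen, which encode chaperones of the endoplasmic reticulum.

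**Figure D5:**
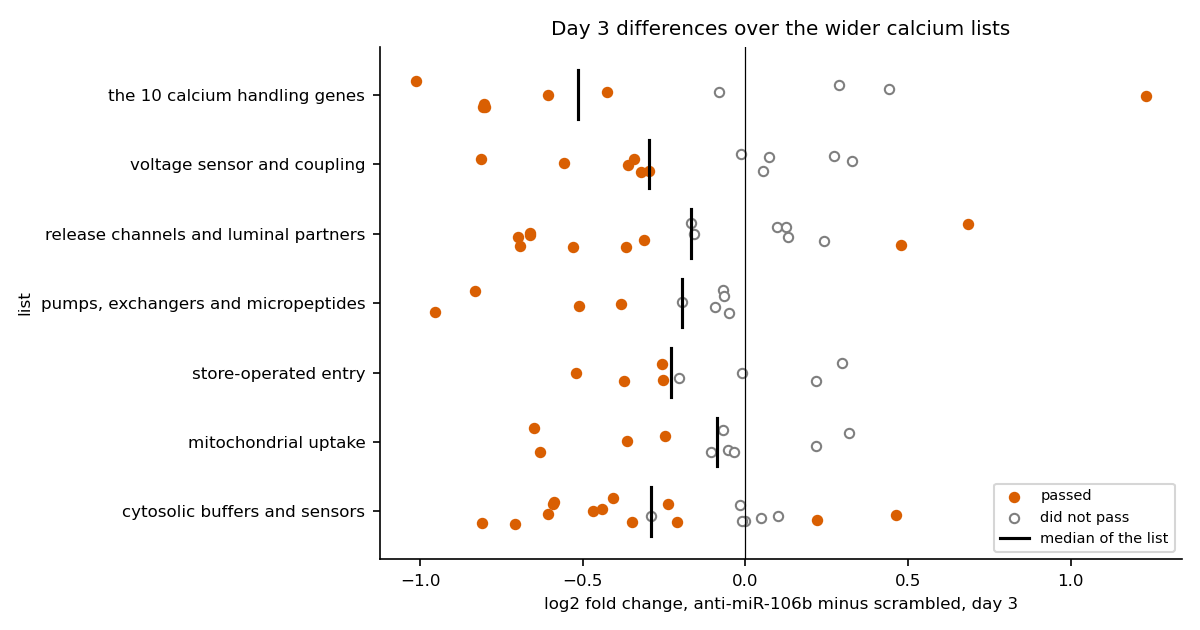
Day 3 difference between anti-miR-106b and scrambled animals (x axis, log2) for the 10 calcium handling genes and for the tested genes of 6 wider lists (y axis), with 1 point per gene, filled where called in limma, and a line at the median of each list. The medians lie at -0.52 for the 10 genes and between -0.30 and -0.09 for the wider lists, and the points above 0 that are filled number 1 and 4.

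The genes most like each of the 10 across the 12 libraries were found by Pearson's r of log2 CPM, a description over 12 points that share 4 groups. Atp2a1 was most like the muscle glycogen phosphorylase gene Pygm (0.998) and Fyco1 (0.998). Casq1 and Pvalb shared the fast myosin-binding gene Mybpc2 (0.997 and 0.994), and Pvalb was also like Myoz1 (0.995) and Tpm1 (0.994), while Casq1 was like Amigo1 (0.994) and Slc37a4 (0.994). Ryr1 was nearest to Pde7b (0.995), Speg (0.994) and Klhl33 (0.993). For the voltage sensor, Cacna1s was like Ptprm (0.995) and Gm47898 (0.992), Cacna2d1 like Fsd2 and Ano5 (0.998 each), and Cacng1 like Serpinb6a (0.978), Gm19410 (0.970) and Emc3 (0.969). Casq2 was most like the slow troponin gene Tnni1 (0.995), with Vash2 (0.995) and Cytip (0.991). Atp2a2 was instead like the mitotic genes Bub1b (0.997) and Sgo2a (0.996) and like Zfp365 (0.993). Sln was like Abl1 (0.981), 5430431A17Rik (0.980) and Rundc3a (0.972).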

How the data were processed

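The authors deposited log2 CPM per gene symbol for 12 libraries of total RNA. Per the submitters' processing notes, the tools were STAR and featureCounts with build mm10, edgeR 3.20.9, limma 3.34.9, Trim Galore 0.4.3.1 and FastQC 0.72; their order, settings and strand use are not given in the sources used here. Whole reads could be recovered from the deposited values (tolerance 1e-06), which gave the library totals; the library scaling factors used by the authors averaged 1.12 (scrambled) and 1.28 (anti-miR-106b) at day 3, and 0.845 and 0.828 at day 7.

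The log2 values were fitted with limma 3.58.1 (R 4.3.3), as 4 group means with a variance prior trended on mean level (residual degrees of freedom 8, prior 5.59). Genes with at least 1 CPM in at least 3 libraries were tested (14063). Tests were two-sided. Adjusted p values are Benjamini-Hochberg over all tested genes, with calls below 0.05. The script was tested on simulated data. With 3 animals a group an exact permutation test has 0.1 as its smallest p and was not used. The labels number 3 replicates a group, read here as 3 animals. They do not say whether an animal gave muscles to more than 1 group, and libraries were treated as independent. The design text names day 5 once, while the library labels say 3 or 7, which were used.

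Gene positions, exon lengths and UTRs come from GENCODE M21 (GRCm38, the assembly of mm10); the deposited annotation is not given in the sources used here. All 10 calcium genes were described in every comparison. Of the 6 wider lists, up to 4 genes with the smallest p at day 3 and up to 4 in day 7 against day 3 of the scrambled arm could be named; those given follow this rule unless said otherwise. Of each calcium gene, the 3 most correlated other tested genes are named, except that some genes under these rules are not reported here. Strit1, Erln, Arln, Sepn1 and Ccdc109b of the wider lists and the marker Myl7 had no row under these symbols in the deposited values. The lists hold symbols, so a gene may be listed under an older and a newer symbol and be analysed under the newer. The 10 genes are defined by symbol and function, not by a measured value, but they, the lists and the tests were chosen with earlier results of these data known. Alternatives were no filter, 1 CPM added before the logarithm, total-count scaling, voom weights on the recovered reads, quantile normalization, library weights, the 2 groups alone, a replicate block and each library left out.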

Additional observations from a re-analysis of the deposited data

Results flagged for a closer look

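For 5 of the 10 calcium genes the inhibitor's effect differed between the days in limma's interaction test (day 7 difference minus day 3 difference). The same test called 22.3% of all tested genes. The change was 0.40 ± 0.13 for Ryr1 (adjusted p = 0.0461), 0.74 ± 0.18 for Atp2a1 (0.0127), 0.67 ± 0.16 for Casq1 (0.0103), 0.80 ± 0.09 for Cacna2d1 (0.00041) and 0.91 ± 0.21 for Pvalb (0.00915). The Ryr1 call was lost in 12 of 19 alternatives, and Atp2a1 and Pvalb were not called under quantile normalization. Relative to the 12 fibre structure genes, a different set differed between the days: Sln (-1.82 ± 0.49, adjusted p = 0.00413), Atp2a2 (-0.83 ± 0.24, 0.00576), Cacng1 (-0.42 ± 0.12, 0.0062), Casq2 (-0.72 ± 0.25, 0.0164) and Cacna1s (-0.32 ± 0.13, 0.0355). On that scale 73.5% of all tested genes were called.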

How the results depend on the processing

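Over all alternatives run, 3 values called in at least 1 of the fits compared turned direction: with total-count scaling Cacng1 was lower at day 7 than at day 3 in both arms (-0.24, adjusted p = 0.0148, and -0.22, adjusted p = 0.0172, limma), and under quantile normalization the Atp2a1 interaction was -0.00899 (adjusted p = 0.972). Under quantile normalization a value depends on rank alone, which limits how far a gene as abundant as Atp2a1 can move. The causes of the 3 changes were not tested. A further 35 of 1640 single-gene values changed sign without a call in either fit, none larger than 0.23 in size. Total-count scaling moved the median of all genes to 0.20 at day 3, -0.02 at day 7, -0.42 and -0.67 between the days and -0.22 in the interaction, and split the day 3 calls into 5189 higher and 1377 lower, against 2296 and 2726. Under it the day 7 against day 3 calls were 1519 higher and 8711 lower (scrambled) and 2152 and 9745 (anti-miR-106b), against 4624 and 4963 and 5331 and 5736, and those of the interaction 866 and 3501, against 1858 and 1276. Quantile normalization gave 6079 higher and 3939 lower in the scrambled arm.

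The 9 genes called at day 7 became 15 with no filter, 35 with 1 CPM added, 29 with total-count scaling, 17 with quantile normalization, 58 with library weights, 23 with the replicate block and 2 with the 2 groups alone, and ranged from 0 to 457 when single libraries were left out, lowest without scrambled day 7 replicate 2 and highest without scrambled day 7 replicate 1. Of the calcium genes, the day 7 count ranged from 0 to 1 without single libraries, the 1 being Casq2 without scrambled day 7 replicate 3. Library weights gave 8820 calls at day 3 (against 5022) and 5334 in the interaction (against 3134), which ranged from 2063 (without scrambled day 3 replicate 2) to 4555 when single libraries were left out. The interaction called 2 calcium genes under quantile normalization (against 5), beside 27.1% of all tested genes (against 22.3%). Relative to fibre genes it called 3 with the other reference, beside 51.8%. When single libraries were left out it called 3 to 7 on that scale, beside 65.4% to 74.8%. With the longest coding transcript as length, chosen after seeing the data, the Atp2a2 shares were 1.02% (scrambled) and 2.13% (anti-miR-106b) at day 3, and 0.228% and 0.257% at day 7.

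Libraries of the same replicate number had correlations of residuals of -0.04 to 0.14 across genes, with 5 of 6 nearest to their own number. Whether the numbers stand for a shared factor was not tested. The labels do not state that equal numbers pair animals, so the main fit did not pair them. With the replicate block, 8 calcium genes were called at day 3, 0 at day 7, 4 in the interaction, and 9 and 10 between the days. The main fit called 7, 0, 5, 9 and 10. Of all tested genes the replicate block called 35%, 0.164%, 20.9%, 67.6% and 78.4% in the same order. Where a left-out library leaves 2 animals in a group, the fit assumes that group varies like the others. At 436 or more reads in every library, counting error is small beside the spread between animals.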
